A study of Mus musculus with 86 samples.

Results

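The nuclear genes of oxidative phosphorylation were examined complex by complex in 2 hind limb muscles of the mouse. Genes were taken from the deposited count table by symbol, namely the Nduf genes of complex I (families a, b, c, s and v), Sdha to Sdhd of complex II, the Uqcr genes of complex III, Cox4 to Cox8 of complex IV and the Atp5 genes of complex V. Of 86 matching symbols, 3 carried a pseudogene name and 3 had a mean under 1 CPM (counts per mega count of the library) over the 86 libraries, which left 80 of the 42807 genes listed. Complex I had 36 of them, complex II 4, complex III 8, complex IV 15 and complex V 17. The lowest gene kept was Cox4i2 at 2.85 CPM, followed by Atp5s at 9.24 CPM, and the genes left out were Cox6b2 at 0.613 CPM, Cox7b2 at 0.00443 CPM and Cox8c at 0. All 80 also passed the filter on low counts in each muscle.

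Oxidative phosphorylation moves electrons from NADH (complex I) and succinate (complex II) through complex III to oxygen at complex IV, and complex V makes ATP from the proton gradient that complexes I, III and IV build. Complex II is also an enzyme of the tricarboxylic acid cycle, pumps no protons, and is the only complex made wholly from nuclear genes. The other complexes join nuclear subunits to a few encoded in mitochondrial DNA. Slow, fatigue-resistant fibres are rich in mitochondria, and several complex IV subunits have one isoform for heart and skeletal muscle and another for most other tissues. A few symbols stand apart from their family by function. Ndufa4 is now counted with complex IV, Cox7a2l joins respiratory complexes into supercomplexes, and Atp5s and Atp5sl resemble coupling factor B rather than core subunits of the synthase.

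RNA was sequenced from the gastrocnemius (GA), a mainly fast muscle, and the soleus (SO), a mainly slow one, of male C57BL/6N mice aged 10 weeks at the start. Each muscle had 43 libraries in 9 groups. Non-treated mice (NT) received only buffer, by injection and by gavage. All other mice were injected for 10 days with dexamethasone, a synthetic glucocorticoid that causes muscle atrophy, at 25 mg/kg per day. The DEX group was gavaged with buffer. The remaining groups were gavaged daily with 1 of 3 extracts named JGT, or with resveratrol. JGT stands for Jakyak-gamcho-tang, a herbal decoction made from peony and liquorice. The ratio of peony to liquorice was 2:1 in JGT02, 1:1 in JGT03 and 1:2 in JGT04, with doses of 100 and 400 mg/kg for every extract. Resveratrol, a polyphenol of plants (RSV here), was given at 200 mg/kg. Extract and resveratrol were given in carboxymethylcellulose, so treatment and vehicle cannot be told apart. Groups held 5 mice, except DEX and JGT04 400 with 4. Library totals were 18.8 to 34.6 M counts.

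The muscle labels were borne out by fibre markers, of which 9 of 9 slow genes were higher and 10 of 10 fast genes lower in SO than in GA of non-treated mice. Exceptions were 3 single libraries. The library of GA JGT02 100 mouse 1 had 1170 CPM of Myh3, the embryonic myosin, against 2.67 to 26.3 CPM in the other GA libraries, and that of SO JGT02 100 mouse 5 had 1030 CPM. SO JGT02 400 mouse 1 had 14 CPM of Myh7, the slow myosin, which was 6840 to 7840 CPM in non-treated SO, and 25500 CPM of the fast myosin Myh4. The first and second of these also had very low levels of the 80 genes. All 3 belong to JGT02 groups, but they enter the spread that a whole muscle's fit estimates. The common dispersion was 0.0379 in GA and 0.0585 in SO with them and 0.00698 and 0.0187 without them, so counts without these 3 libraries are given beside the others. In whole muscle, fewer cells of a type and less RNA per cell cannot be told apart.

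The stretch of 250 bases upstream of the listed transcription start is shown for 6 genes on which the results turn, namely Sdha, whose transcript was lower after dexamethasone in SO, and 5 isoform genes of complex IV. Sequences are RefSeq's, build GRCm38.p6, written along the gene's strand. Sdha lies at chr13:74350241-74350490 (minus strand), Cox6a1 at chr5:115348959-115349208 (minus), Cox7a1 at chr7:30183921-30184170 (plus), Cox7a2 at chr9:79759854-79760103 (minus), Cox8a at chr19:7217617-7217866 (minus) and Cox8b at chr7:140900447-140900696 (minus). Capitals mark, on either strand, the letters GCGCA, any base and GCGC (the NRF1 motif), CCGGAAG (GABPA), AAGGTCA (ESRRA) and CCAAT (NFY). NRF1, GABPA and ESRRA are factors known to act on mitochondrial genes.
Sdha: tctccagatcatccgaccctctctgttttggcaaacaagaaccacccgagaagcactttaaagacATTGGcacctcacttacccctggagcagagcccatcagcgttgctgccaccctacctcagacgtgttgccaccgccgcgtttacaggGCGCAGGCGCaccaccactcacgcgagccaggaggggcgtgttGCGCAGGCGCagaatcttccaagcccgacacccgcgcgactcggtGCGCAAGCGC
Cox6a1: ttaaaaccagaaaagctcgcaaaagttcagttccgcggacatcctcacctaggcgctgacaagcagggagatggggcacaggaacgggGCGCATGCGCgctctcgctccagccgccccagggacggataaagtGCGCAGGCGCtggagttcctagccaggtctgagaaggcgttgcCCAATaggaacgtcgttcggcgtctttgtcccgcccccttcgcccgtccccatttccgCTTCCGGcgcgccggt
Cox7a1: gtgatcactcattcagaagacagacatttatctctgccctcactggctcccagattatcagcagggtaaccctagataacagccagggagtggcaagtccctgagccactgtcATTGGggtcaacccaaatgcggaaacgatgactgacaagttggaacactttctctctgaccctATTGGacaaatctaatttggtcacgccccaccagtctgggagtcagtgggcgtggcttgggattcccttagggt
Cox7a2: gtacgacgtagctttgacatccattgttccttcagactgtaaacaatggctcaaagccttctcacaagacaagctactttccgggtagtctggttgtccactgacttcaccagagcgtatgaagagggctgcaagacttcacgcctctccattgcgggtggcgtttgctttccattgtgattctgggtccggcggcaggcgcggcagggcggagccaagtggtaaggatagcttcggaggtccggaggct
Cox8a: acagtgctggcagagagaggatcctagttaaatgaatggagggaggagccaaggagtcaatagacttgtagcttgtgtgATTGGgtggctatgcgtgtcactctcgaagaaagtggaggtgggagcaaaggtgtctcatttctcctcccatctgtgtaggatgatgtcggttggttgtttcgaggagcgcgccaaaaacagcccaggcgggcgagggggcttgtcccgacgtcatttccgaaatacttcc
Cox8b: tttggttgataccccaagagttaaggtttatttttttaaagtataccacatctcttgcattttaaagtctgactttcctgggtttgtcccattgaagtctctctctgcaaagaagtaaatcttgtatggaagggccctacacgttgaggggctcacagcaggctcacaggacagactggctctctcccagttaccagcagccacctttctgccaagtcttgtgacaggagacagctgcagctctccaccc

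Sdha, the flavoprotein that oxidises succinate, had the NRF1 letters 3 times and CCAAT once. The NRF1 match at bases -10 to -1 from the listed start lies inside the gene as GENCODE vM21 annotates it. Cox6a1, the subunit VIa isoform of most tissues, had NRF1 letters 2 times, GABPA once and CCAAT once. The muscle isoform Cox7a1 and the general isoform Cox8a had CCAAT only, and Cox7a2 and Cox8b had none of the 4. Promoters were found for 67 of the 80 genes, and 12 of these (17.9%) held the NRF1 letters, against 3.86% of 27025 promoters of the same length. GABPA letters were in 11 (16.4%, against 7.05% of all), ESRRA letters in 5 (7.46%, against 4.05%) and CCAAT in 29 (43.3%, against 34.5%). The letters AGAACA, one arm of the glucocorticoid receptor's site, were in 6 (8.96%) against 16.2% of all. The median GC content was 56.4% in these genes and 52% in all. A match describes these letters and is not a measured binding site, and all counts are over the 67 promoters found.

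In non-treated mice the complexes differed in transcript level. Per kilobase of transcript, the median subunit gene of complex I stood at 159 CPM in GA and 207 in SO, and that of complex II at 156 and 230. Complexes III, IV and V were higher, at 304 and 453, 399 and 629, and 325 and 502 CPM per kilobase in GA and SO. The widest range was in complex IV, from 2.65 to 1250 CPM per kilobase in GA, where Cox6a2, the heart and muscle isoform of subunit VIa, was highest and Cox4i2, an isoform known from lung, was lowest. The highest genes of the other complexes in GA were Ndufa4 at 542 ± 31.6, Sdha at 245 ± 15.8, Uqcrb at 574 ± 17.3 and Atp5b, the catalytic beta subunit, at 1150 ± 42.4 CPM per kilobase (SD, n = 5).

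All complexes were higher in the slow muscle. In non-treated mice 57 of the 80 genes were higher in SO than in GA and 0 were lower (edgeR quasi-likelihood test, adjusted p under 0.05), while 45.8% of all genes tested changed and 22.4% were higher. The median log2 fold change of the 80 was 0.52 and that of all genes 0.00. Complex IV had 15 of 15 genes higher, with a median of 0.66, complex III 7 of 8 (0.57), complex V 14 of 17 (0.53), complex II 3 of 4 (0.68) and complex I 18 of 36 (0.44). Values of the genes are shown in the plot of soleus against gastrocnemius.

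**Figure D1:**
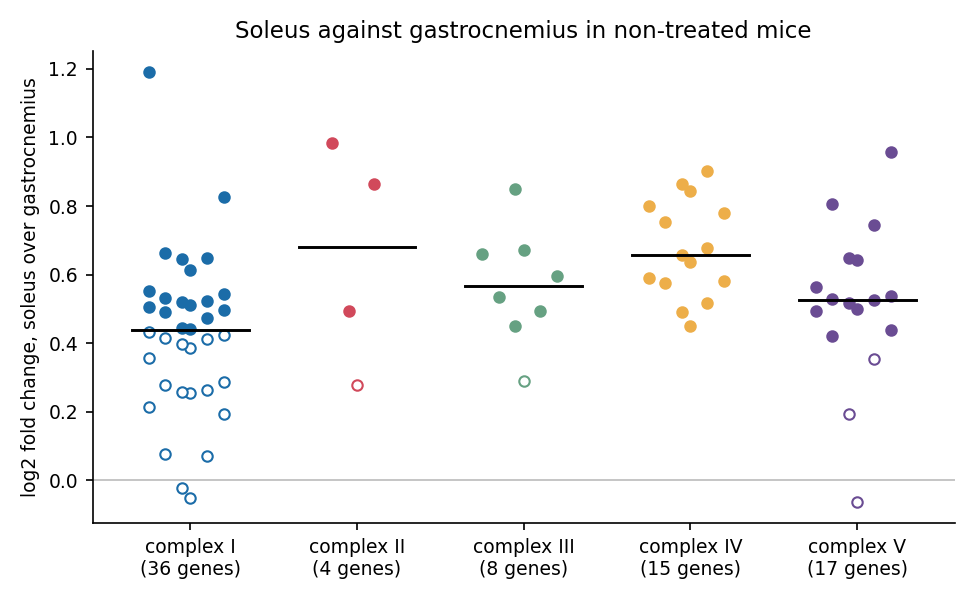
Log2 fold change of each of the 80 genes, soleus against gastrocnemius of non-treated mice, by complex. Filled points had an adjusted p under 0.05 (57 genes, all higher in soleus), open points did not, and bars are medians of the complex.

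The largest difference was that of Ndufb3, an accessory subunit of complex I. It stood at 71.4, 66.9, 66.9, 63.8 and 60.4 CPM in the GA libraries and at 164, 165, 159, 134 and 129 CPM in the SO libraries of non-treated mice. No SO library overlapped a GA library, and the log2 fold change was 1.19 ± 0.20 (SE, edgeR adjusted p = 1.01e-06). Sdhb, the iron-sulfur subunit of complex II, was higher by 0.98 ± 0.20, Atp5g3, a c-ring gene, by 0.96 ± 0.16, Cox7a1 by 0.90 ± 0.31 and Uqcrq, a small subunit of complex III, by 0.85 ± 0.18 on the log2 scale. Sdha was the 1 gene of complex II that did not pass, with 0.28 ± 0.19 (adjusted p = 0.243). Of Ndufb3, 13.5% of its 31-base words occur in other genes, so part of its counts depends on how reads were shared out.

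Lists around the complexes were read against the 22.4% of all genes that were higher. Of 5 electron carrier genes 4 were higher, with a median log2 fold change of 1.16, of 14 tricarboxylic acid cycle genes 6 were higher (0.37), and of 13 subunits encoded in mitochondrial DNA 4 were higher (0.43). Assembly factors, the proteins that build the complexes, were divided, with 5 higher and 1 lower of 14 for complex I and 8 higher and 4 lower of 20 for complex IV. GA and SO libraries of non-treated mice lie in different sets of the listed library order, a division read from the order of libraries in the table and not given in the labels. With a term for the set 13 of the 80 genes (16.2%) were called in place of 57, with a median of 0.58, beside 22.7% of all genes. Without the 3 libraries 75 were called, beside 58.1% of all genes. With the set term and without the 3 libraries, a setting added after the data were seen, 66 (82.5%) were called, beside 38.5%.

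The plot of medians by library shows all 9 groups of each muscle. Log2 medians relative to the non-treated mean were -0.33 to -0.05 in the GA DEX libraries and -0.11 to 0.11 in GA NT, so that the groups overlap. In SO they were -0.45 to 0.19 in DEX and -0.20 to 0.18 in NT, with DEX mouse 4 the lowest.

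**Figure D2:**
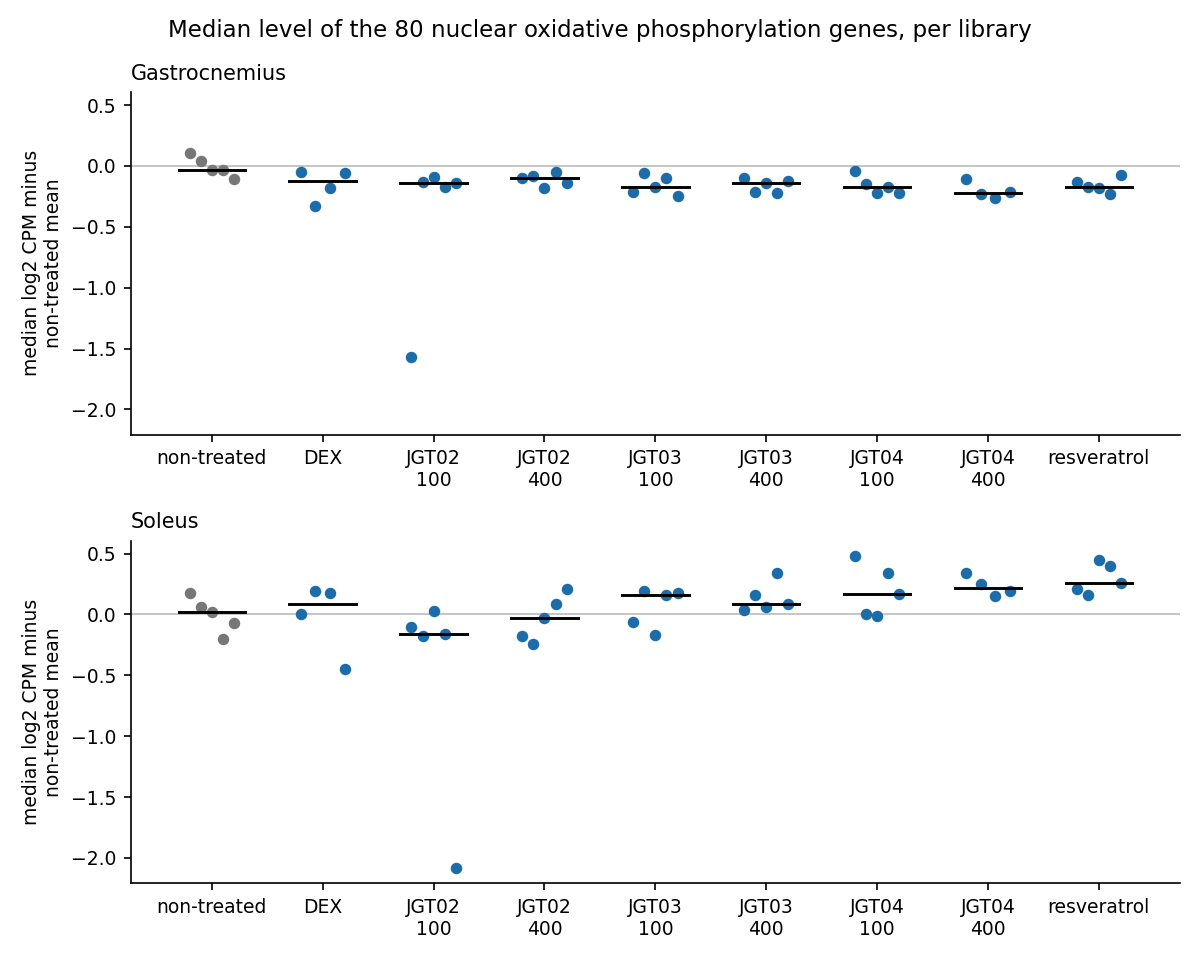
Median over the 80 genes of the log2 CPM relative to the mean of non-treated mice of the muscle, 1 point per library, by group, with gastrocnemius and soleus on the same scale. Bars are group medians. Libraries at -1.57 (GA JGT02 100 mouse 1) and -2.08 (SO JGT02 100 mouse 5) lie far below all others.

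In GA, DEX against non-treated gave 0 higher and 2 lower of the 80 genes, while 8.38% of all genes tested changed and 4.07% were lower. Both belong to the ATP synthase. Atp5h, subunit d of the peripheral stalk, stood at 240, 227, 239, 246 and 222 CPM in NT and at 205, 176, 196 and 170 CPM in DEX. The groups did not overlap and the log2 fold change was -0.35 ± 0.10 (SE, edgeR adjusted p = 0.0287). Atp5g3 stood at 343, 306, 282, 264 and 255 CPM in NT and at 240, 170, 176 and 301 CPM in DEX. Its DEX mouse 4 lies among the NT libraries, and the log2 fold change was -0.41 ± 0.12 (adjusted p = 0.0239). Leaving out 1 library ended the call of Atp5h in 6 of 9 cases and that of Atp5g3 in 4 of 9. Of the 31-base words of Atp5h, 25.4% occur elsewhere in the transcriptome.

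The other genes of GA had the same sign more often than not, without passing the test. In all 73 of 80 log2 fold changes were negative, with a median of -0.15 against -0.01 for all genes tested. Medians were -0.13 in complex I, -0.21 in complex II, -0.17 in complex III, -0.23 in complex IV and -0.16 in complex V. Among the muscle isoforms of complex IV, Cox7a1 was at -0.42 ± 0.25 (edgeR adjusted p = 0.348) and Cox8b at -0.36 ± 0.24 (adjusted p = 0.406), and in complex II Sdhb was at -0.39 ± 0.15 (adjusted p = 0.101). Ndufs4, an accessory subunit of complex I, had the opposite sign at 0.39 ± 0.16 (adjusted p = 0.13), with 105, 101.2, 94.6, 87.4 and 94.1 CPM in NT and 130, 107, 115 and 160.5 CPM in DEX. All DEX libraries were above all NT libraries for this gene.

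These GA counts depend on the libraries that set the spread. Without the 3 libraries 38 of the 80 genes were lower and 1, Ndufs4, was higher, while 26.4% of all genes tested changed and 13.2% were lower. Lower genes were then 14 of 36 in complex I, 3 of 4 in complex II, 4 of 8 in complex III, 7 of 15 in complex IV and 10 of 17 in complex V, and the median stayed at -0.15. By role, 4 of 7 core and 10 of 29 accessory subunits of complex I were lower in that fit, as were 3 of 3 core and Rieske and 1 of 5 other subunits of complex III. In complex V they were 3 of 5 head and central stalk, 4 of 4 peripheral stalk and 1 of 3 c-ring genes. Over all 8 dexamethasone groups, set against the same non-treated libraries, 21 of 80 genes were lower and 0 higher, beside 21.2% of all genes changed and 10.9% lower, among them Atp5h (log2 fold change -0.39 ± 0.07, edgeR adjusted p = 6.65e-05). With a term for the set 6 were lower, beside 15.6% of all genes changed, and without GA JGT02 100 mouse 1 alone 57 were called, beside 42.7%.

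In SO, DEX against non-treated gave 2 higher and 4 lower of the 80 genes, while 20.8% of all genes tested changed, 11.3% higher and 9.47% lower. Among the 80 the share called was 7.5%, under that of all genes. The 4 lower genes are long-known catalytic or core parts of the chain, namely Sdha, Sdhd (a membrane anchor of complex II), Ndufs1 (the largest core subunit of complex I, with iron-sulfur clusters) and Uqcrc2 (a core protein of complex III). The 2 higher genes are Cox6a1 and Cox8a, isoforms of complex IV subunits that most non-muscle tissues use. The median of the 80 was -0.01 and that of all genes 0.05.

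Sdha stood at 938, 837, 820.5, 868 and 846 CPM in SO of non-treated mice and at 575, 540, 530 and 345 CPM in DEX. All DEX libraries were below all NT libraries, mouse 4 the lowest, and the log2 fold change was -0.79 ± 0.23 (SE, edgeR adjusted p = 0.0136). In GA the same gene stood at 758, 749, 688, 713 and 646.5 CPM in NT and at 636, 549, 620 and 659 CPM in DEX, where the groups overlap, with -0.22 ± 0.16 (adjusted p = 0.46). Sdhd fell by 0.48 ± 0.17 (adjusted p = 0.0455), from 222, 203, 198, 177 and 199 CPM in SO NT to 146, 163, 169 and 96 CPM in DEX. Sdhc, the other anchor, was at -0.42 ± 0.21 (adjusted p = 0.155) and Sdhb at -0.39 ± 0.25 (adjusted p = 0.271). Sdha is on chromosome 13 (GRCm38, 74322254 to 74350280, minus strand).

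Ndufs1 stood at 395, 345, 348, 368 and 362 CPM in SO NT and at 226.5, 235, 243 and 144 CPM in DEX, with no overlap (log2 fold change -0.77 ± 0.23, edgeR adjusted p = 0.0155). Uqcrc2 stood at 510, 456, 461.5, 443 and 473 CPM in NT and at 318, 337, 363 and 218 CPM in DEX, also with no overlap (-0.60 ± 0.21, adjusted p = 0.04). In each of these genes DEX mouse 4 was the lowest library. Without DEX mouse 4 alone none of the 4 lower genes passed, with adjusted p of 0.0706 for Sdha, 0.0806 for Ndufs1, 0.166 for Uqcrc2 and 0.224 for Sdhd and log2 fold changes of -0.65, -0.62, -0.46 and -0.32. In the fit that also leaves out the 3 libraries all 4 passed. Their edgeR adjusted p was then 6.58e-06, 6.14e-06, 3.89e-05 and 0.00199 in the same order. The calls of Uqcrc2 and Sdhd were each lost in 6 of 9 fits that leave out 1 library.

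Cox6a1 stood at 26.4, 26.5, 27.8, 19.1 and 23.7 CPM in SO NT and at 37.6, 35.5, 47.0 and 37.2 CPM in DEX. All DEX libraries were above all NT libraries, and the log2 fold change was 0.67 ± 0.19 (edgeR adjusted p = 0.0134). Cox8a stood at 47.9, 48.2, 47.8, 39.7 and 41.0 CPM in NT and at 60.5, 65.2, 71.8 and 51.2 CPM in DEX, with no overlap (0.47 ± 0.15, adjusted p = 0.0224). The call of Cox6a1 was lost without DEX mouse 3 (adjusted p = 0.0539) and that of Cox8a in 3 of 9 fits that leave out 1 library, those without NT mouse 4, NT mouse 5 or DEX mouse 3. Of Cox6a1, 18.4% of the 31-base words occur in other genes. In GA Cox6a1 was at 0.05 ± 0.26 and Cox8a at -0.01 ± 0.21, and neither passed.

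The plot of changes in both muscles sets the 80 genes side by side. In SO the values are described here by the subunit's role. All 7 core subunits of complex I had negative values, with a median of -0.18, while 18 of 29 accessory subunits had positive ones, with a median of 0.05. In complex III the 3 core and Rieske subunits were negative (median -0.27) and the 5 small subunits positive (0.10). In complex V the 5 head and central stalk subunits had a median of -0.21, led by Atp5a1, the alpha subunit, at -0.48 ± 0.22 (edgeR adjusted p = 0.111), and the 4 peripheral stalk subunits one of -0.01. Few of these passed the test, namely Ndufs1 and Uqcrc2, and these medians are descriptions.

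**Figure D3:**
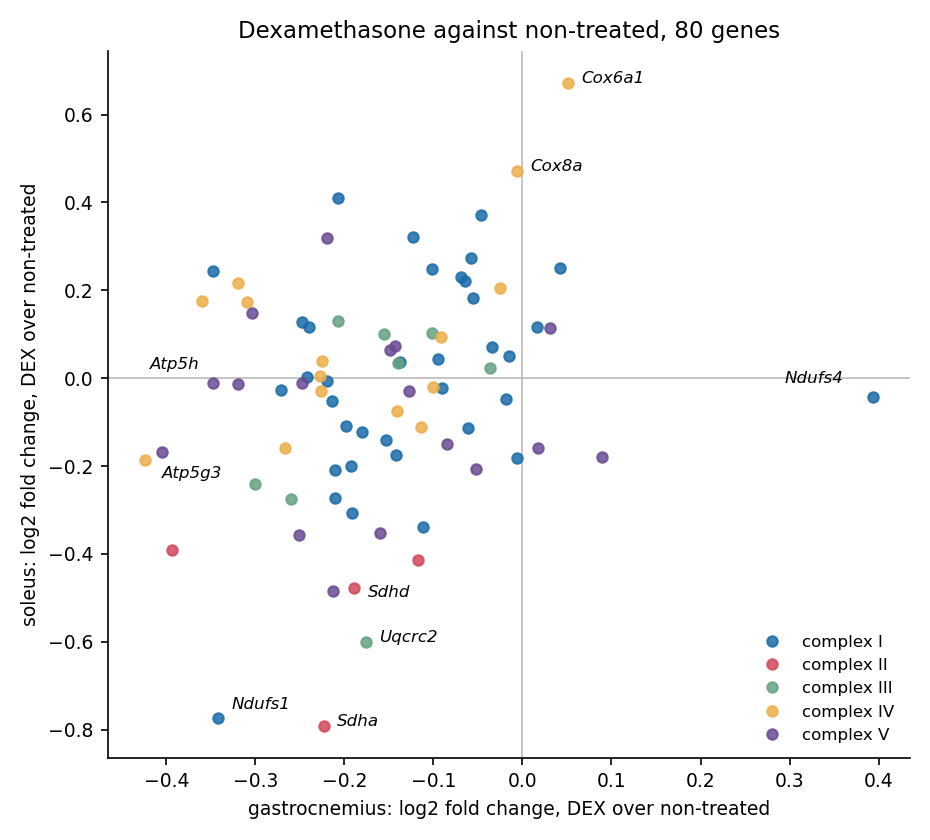
Log2 fold change of DEX against non-treated for each of the 80 genes, gastrocnemius on the horizontal axis and soleus on the vertical axis, coloured by complex. Sdha (-0.79), Ndufs1 (-0.77) and Uqcrc2 (-0.60) lie lowest on the soleus axis, and Cox6a1 (0.67) and Cox8a (0.47) highest.

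The SO values were also set against transcript length. Over 79 genes with a length, the SO log2 fold change had a Spearman rho of -0.54 with transcript length, where points share libraries and differ in role. The 47 genes up to 1000 bases had a median of 0.04, the 25 from 1000 to 2000 bases one of -0.17 and the 7 above 2000 bases one of -0.41. Sdha is 2900 bases long and Ndufs1 2661, whereas Cox6a1 has 571 and Cox8a 550. Over 12802 other genes rho was -0.09, and over the 79 genes in GA it was -0.11. The parts of length and role in the SO pattern were not tested apart.

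In SO 5 of the 80 genes were higher and 13 lower without the 3 libraries, while 43.2% of all genes tested changed. Lower genes were then 4 of 4 in complex II, 4 in complex I, 1 in complex III and 4 in complex V, and the 2 higher genes of complex IV were again Cox6a1 and Cox8a. Without SO DEX mouse 4 as well, 12 were higher and 8 lower, beside 36.1% of all genes, and the median was 0.11. In complex II 3 of 4 genes were still lower in that fit.

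Complex II was therefore compared with the other 76 genes within each library, which removes a shift common to all complexes. It was picked for its low values in these same SO DEX libraries, so the values here describe it and are not a test. JGT03, JGT04 and RSV libraries of SO also lie in a later set than DEX. The log2 median of the 4 genes less that of the other 76 was -0.06 to 0.08 in SO NT and -0.61 to -0.41 in SO DEX. Of the 38 SO libraries of dexamethasone-treated mice, 36 were below every NT library, with a median of -0.30 and a range of -0.61 to 0.02, and without the SO libraries that stand apart this held for 34 of 36. Group medians were -0.12 in JGT02 100, -0.17 in JGT02 400, -0.21 in JGT03 100, -0.30 in JGT03 400, -0.26 in JGT04 100, -0.40 in JGT04 400 and -0.36 in RSV. In GA the 38 libraries ranged from -0.10 to 0.07, and 5 were below and 12 above the NT range of -0.04 to 0.03.

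**Figure D4:**
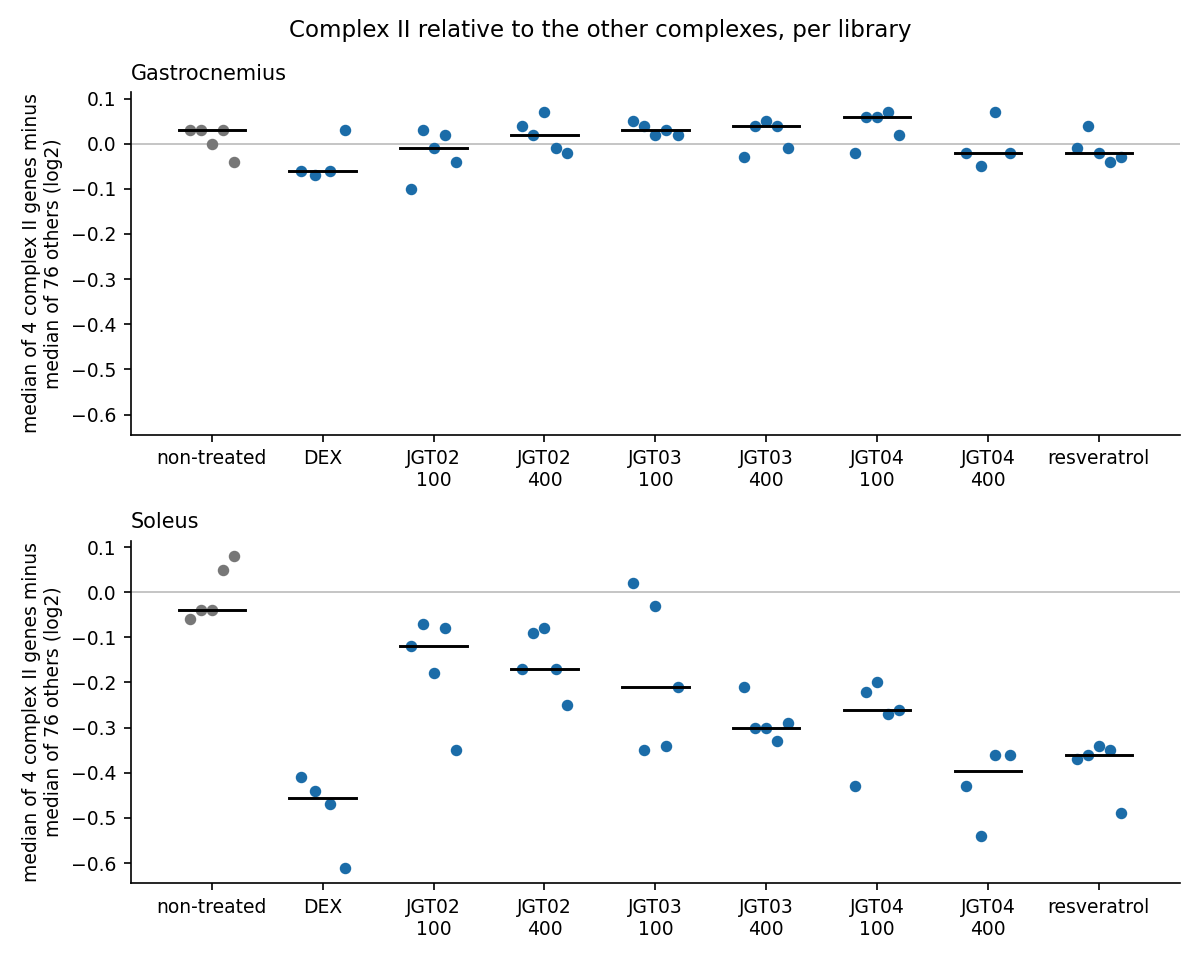
Log2 median of the 4 complex II genes less the log2 median of the other 76 genes, 1 point per library, by group, with both muscles on the same scale. Bars are group medians. In soleus 36 of 38 libraries of dexamethasone-treated mice lie below all 5 non-treated libraries, and in gastrocnemius 5 of 38 do.

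All 4 genes of complex II had negative log2 fold changes in SO DEX, between -0.79 and -0.39. The other complexes were set against the rest in the same way. In SO complex IV was above all NT libraries in 25 of 38 and complex III below in 24 of 38. In GA complex I was above in 31 of 38, complex III below in 26 and complex IV below in 23, with medians of 0.05, -0.02 and -0.04.

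The difference between the muscles in the effect of DEX was tested as such. Of the 80 genes 0 passed and DESeq2 also called 0, while 8.36% of all genes tested passed. An unadjusted p under 0.05 in edgeR was reached by 3 of the 80, beside 3801 of all 15327 genes tested. Sdha was lower in SO relative to GA by -0.59 ± 0.29 (adjusted p = 0.189), and Cox6a1 and Ndufc1, an accessory subunit of complex I, were at 0.60 (adjusted p = 0.219 and 0.178). In the fit without the 3 libraries 6 genes passed as higher and 9 as lower, beside 33.6% of all genes. Those lower included Sdha at -0.62, Ndufs1 at -0.49 and Uqcrc2 at -0.48, and those higher Cox6a1 at 0.57 and Cox8a at 0.42.

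Complex IV isoforms were also compared as shares per kilobase, so that each pair is read within 1 library. Cox8a made up 6.93 ± 0.494% of Cox8a and Cox8b together in SO NT and 8.41 ± 0.697% in DEX, and 6.18 ± 0.486% and 7.80 ± 0.604% in GA (SD, n = 5 and 4). Cox6a1 made up 1.95 ± 0.154% of Cox6a1 and Cox6a2 in SO NT and 2.91 ± 0.47% in DEX, and Cox7a2 18.3 ± 1.19% and 22.3 ± 1.72% of Cox7a1 and Cox7a2. In each of these 4 comparisons no library overlapped between the groups (two-sided exact permutation test, p = 0.0159, the smallest that 4 against 5 libraries can give, and 0.0381 adjusted over 12 tests). In GA the shares of Cox6a1 (2.03 and 2.26%, exact p = 0.413) and Cox7a2 (21.8 and 23.2%, exact p = 0.159) overlapped. A share that rises can come from either gene. In GA, Cox8a was near 0 at -0.01 and Cox8b was at -0.36, while in SO Cox8a rose by 0.47 and Cox8b was at 0.18.

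**Figure D5:**
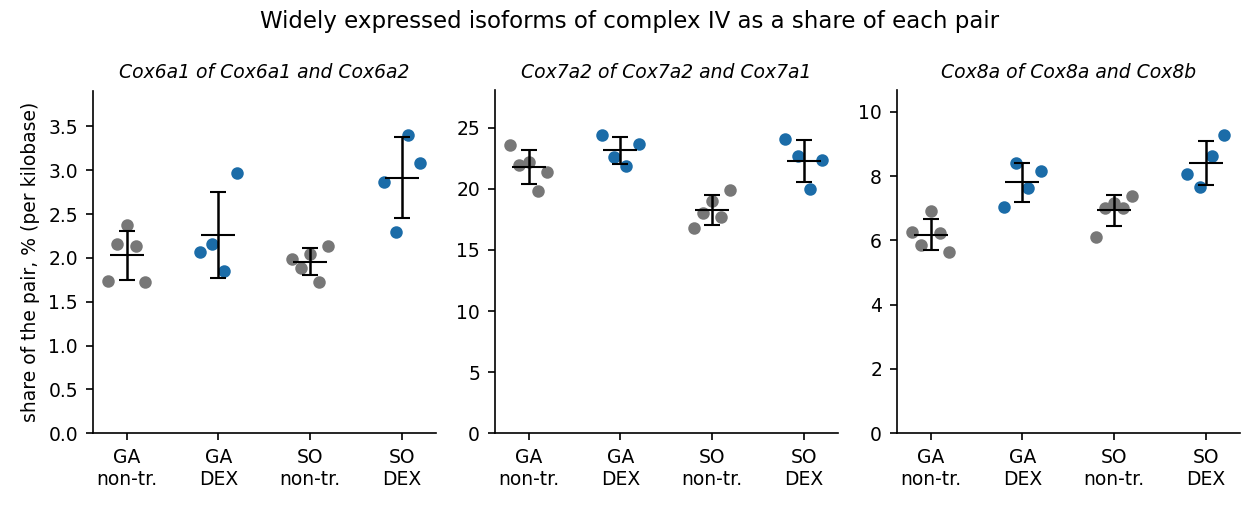
Share per kilobase of the isoform of most other tissues within each complex IV pair, in percent, in non-treated and DEX mice of each muscle, with mean and SD. Points are libraries, grey for non-treated and blue for DEX, and each axis starts at 0. DEX libraries lie above all non-treated libraries of the muscle for Cox8a in both muscles and for Cox6a1 and Cox7a2 in soleus.

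Genes outside the complexes were counted by list, beside the 9.47% of all genes that were lower in SO DEX. Of 14 tricarboxylic acid cycle genes 6 were lower in DEX and all 14 negative, with a median of -0.56, among them Cs, citrate synthase, at -0.71 ± 0.22 (edgeR adjusted p = 0.022) and Ogdh, of the oxoglutarate dehydrogenase complex, at -0.81 ± 0.25 (adjusted p = 0.0178). In GA 14 of 14 were negative as well, with a median of -0.20, but 0 passed and 1 had an unadjusted p under 0.05. Of 14 complex I assembly factors 6 were lower in SO, including Acad9 (-0.55 ± 0.10, adjusted p = 0.000373) and Ndufaf1 (-0.60 ± 0.17, adjusted p = 0.0115), and 1, Ndufaf1, in GA. Sdhaf2, which helps attach flavin to Sdha, fell by 0.40 ± 0.11 in SO (adjusted p = 0.0117).

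For complex IV 3 of 19 assembly factors were lower and 1 higher in SO, the largest change being Taco1, an activator of Cox1 translation, at -1.47 ± 0.26 (edgeR adjusted p = 0.000209). Of 12 regulators of mitochondrial genes 2 were lower in SO, Tfam, which packages and transcribes mitochondrial DNA, at -0.43 ± 0.12 (adjusted p = 0.0133), and Gabpa at -0.38 ± 0.08 (adjusted p = 0.00125). In GA 1 was higher, Nrip1, a corepressor, at 1.00 ± 0.14 (adjusted p = 3.33e-06). Of 13 subunits encoded in mitochondrial DNA 0 passed in either muscle, with medians of 0.01 in GA and -0.05 in SO, and 1 and 0 had an unadjusted p under 0.05.

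Markers of other cell types were counted in the same comparison, where 1676 of all 14811 genes tested were higher. In SO DEX 10 of 10 Schwann cell and nerve markers were higher, with summed levels of 888, 163, 757 and 102 CPM in mice 1 to 4 against 117 to 205 CPM in NT. Adipocyte markers were higher for 7 of 9 (summed 1870 to 3590 CPM against 3130 to 3590) and endothelial markers for 4 of 10 (473 to 591 CPM against 370 to 473). Of 9 macrophage markers 0 passed and 2 had an unadjusted p under 0.05 in edgeR. Their summed levels were 70.8, 44, 59.2 and 351 CPM in DEX mice 1 to 4 against 35.3 to 82.3 in NT. Slow fibre markers summed to 30000, 31600, 22200 and 17400 CPM in DEX mice 1 to 4 against 24900 to 29800 in NT. In GA DEX 624 of all 14484 genes tested were higher and 590 lower. There 4 of 10 endothelial markers (287 to 301 CPM against 334 to 367) and 3 of 10 tendon and fibroblast markers (520 to 762 CPM against 950 to 1550) were lower. Adipocyte markers were 6 higher and 1 lower of 9 there, while their summed level was lower in all DEX libraries (1780 to 2260 CPM against 2590 to 3090). Their part in the results was not tested.

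The 7 treated groups were each set against the same DEX libraries, 4 per muscle, so that their values share any peculiarity of these. In GA 0 of the 80 genes passed in any of the 7 comparisons, where the shares of all genes that passed were 10.2% and 0.808% for JGT02 at 100 and 400 mg/kg, 0.0207% and 0.677% for JGT03, 1.38% and 2.04% for JGT04 and 1.37% for RSV. Medians were between -0.05 and 0.03, apart from -0.18 in JGT02 100, which contains the library of mouse 1, and was 0.00 without it. Genes with an unadjusted p under 0.05 in edgeR numbered 9 in JGT02 100, 1 in JGT02 400 and JGT04 400, and 0 in the other 4, and DESeq2 called 0 in each of the 7. Of all 14484 genes tested 4171 had such a p in JGT02 100, 1359 in JGT02 400 and 1806 in JGT04 400. In the other 4 groups 775 to 1709 of all genes did.

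In SO 79 of the 80 log2 fold changes of resveratrol against DEX were positive. The median was 0.31 against -0.03 for all genes, and 0.17 without the 3 libraries and DEX mouse 4. Of the 80 genes 3 were higher and 0 lower, beside 12.7% of all genes changed and 5.11% higher. Cox7a2 stood at 153, 171, 154 and 102 CPM in DEX and at 189, 210, 261, 232 and 232.5 CPM in RSV, with no overlap (log2 fold change 0.63 ± 0.21, edgeR adjusted p = 0.043). Cox7a2l stood at 128, 137, 129 and 80.2 CPM in DEX and at 154, 148, 167, 175 and 152 CPM in RSV, also without overlap (0.42 ± 0.12, adjusted p = 0.0156). Atp5s, at 7.74, 8.91, 8.31 and 6.70 CPM in DEX and 8.59, 11, 12.5, 12.5 and 10.7 CPM in RSV, overlapped in 1 library (0.48 ± 0.15, adjusted p = 0.0299). Of all 14811 genes tested 1119 were lower in the same comparison. Among cell type markers 4 of 10 endothelial (summed 351 to 518 CPM in RSV, 473 to 591 in DEX) and 2 of 10 Schwann (131 to 256, 102 to 888) were lower. So were 1 of 9 macrophage markers (29.6 to 64.4, 44 to 351, the highest in DEX mouse 4) and 1 of 10 tendon and fibroblast markers (263 to 347, 454 to 561, with no overlap). Of 6 red blood cell markers 0 passed in edgeR, also at an unadjusted p under 0.05 (650 to 1120, 553 to 736). Their part in the result was not tested.

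Sdha, the lowest gene of SO DEX, was followed through the treated groups of SO. It stood at 652, 606, 671, 674 and 489 CPM in RSV, at 599, 483, 630 and 653 in JGT04 400 and at 695, 687, 697, 733 and 676 in JGT04 100. JGT03 400 had 721, 612, 580, 728 and 643 CPM and JGT03 100 had 839, 617, 730, 648 and 739. JGT02 400 had 844, 679, 784, 739 and 778 CPM, and JGT02 100 had 730, 758, 868, 753 and, in mouse 5, 153. Most of these lie between the DEX range of 345 to 575 CPM and the NT range of 820.5 to 938, and no group passed the test against DEX for Sdha with all libraries in the fit.

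Without the 3 libraries Sdha was higher than in DEX in 6 of the 7 groups, from 0.64 ± 0.11 in JGT02 100 (edgeR adjusted p = 5.37e-05) and 0.50 ± 0.11 in JGT03 100 (adjusted p = 0.000601) to 0.31 ± 0.11 in RSV (adjusted p = 0.0209), and JGT04 400 did not pass (0.24, adjusted p = 0.11). Complex II then had 3 of 4 genes higher in JGT02 400, JGT03 100, JGT03 400, JGT04 100 and RSV, and 2 of 4 in JGT02 100 and JGT04 400. Of all genes tested 35.7% changed in that fit for JGT02 100, 30.3% for JGT02 400, 30% for JGT03 100, 27.5% for JGT03 400, 31.2% for JGT04 100, 22.2% for JGT04 400 and 36.7% for RSV. Leaving out DEX mouse 4 as well left 1 to 3 genes of complex II higher in each group. With a set term 0 of the 80 genes passed in JGT03, JGT04 or RSV. The share of all genes was then 0% in JGT03 100, JGT03 400 and JGT04 400, 0.027% in JGT04 100 and 0.0203% in RSV. Almost no gene passed there, so these counts do not single out the 80.

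Few genes were called in the extract groups. Against DEX the SO medians were -0.32 in JGT02 100, 0.01 in JGT02 400, 0.12 in JGT03 100, 0.17 in JGT03 400, 0.24 in JGT04 100 and 0.25 in JGT04 400, where 80 of 80 values were positive. The median of JGT02 100 was -0.10 without the 3 libraries. With a set term those of JGT02 400, JGT03 and JGT04 were all negative, at -0.13 in JGT02 400, -0.22 and -0.13 in JGT03 at 100 and 400 mg/kg, and -0.09 and -0.04 in JGT04, where 30 of 80 values were positive at 400 mg/kg. The median of JGT02 100 stayed at -0.315 with that term, and that of DEX against non-treated at -0.012. In JGT03 and JGT04, which lie in a later set than DEX, set and treatment are hard to tell apart. With the term at most 0.027% of all genes passed in them, so their medians are poorly determined. JGT02 100 had 4 lower genes (8.82% of all genes changed and 4.02% were lower), namely Ndufc1 at -0.77 ± 0.22, Ndufs6 at -0.65 ± 0.21 and Ndufa2 at -0.62 ± 0.20, which are accessory subunits of complex I, and Atp5e, the epsilon subunit of the synthase, at -0.70 ± 0.22 (edgeR adjusted p of 0.0259, 0.0438, 0.0436 and 0.0342). Ndufs6 was added after its values were seen. JGT02 400 had Cox6a1 lower at -0.56 ± 0.19 (adjusted p = 0.0427, beside 17.1% of all genes changed and 7.89% lower), and Sdha was at 0.62 ± 0.23 (adjusted p = 0.0542). The 4 groups of JGT03 and JGT04 had 0 called, while 8.49%, 3.06%, 8.95% and 4.58% of all genes passed. At an unadjusted p under 0.05 in edgeR there were 4, 5, 11 and 8 of the 80 genes. Of all 14811 genes tested there were 3584, 3159, 3692 and 2998 at that threshold.

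Other settings gave other counts. Without DEX mouse 4 alone 0 were called in RSV and 8 in JGT02 100, beside 5.43% and 9.84% of all genes, and without JGT02 100 mouse 5 that group had 10, beside 31.5%. The call of Cox6a1 in JGT02 400 was lost without DEX mouse 1, 3 or 4 or JGT02 400 mouse 1, 4 or 5. Without the 3 libraries 45 genes were higher and 1 lower in RSV, 21 higher in JGT04 400 and 22 in JGT04 100, beside 36.7%, 22.2% and 31.2% of all genes. Without DEX mouse 4 in addition 18 were called in RSV, 5 in JGT04 400 and 11 in JGT04 100, beside 23.7%, 10% and 18.9% of all genes. JGT03, JGT04 and RSV libraries of SO lie in a later set than DEX. With a set term 0 of the 80 genes passed in RSV, where the median was 0.04, beside 0.0203% of all genes. Over all 8 dexamethasone groups of SO against the same non-treated libraries, 3 genes were higher and 1 lower, beside 17.8% of all genes changed, 9.05% higher and 8.78% lower, and these were Cox8a (0.45 ± 0.11, edgeR adjusted p = 0.004), Ndufa7 (0.42 ± 0.12, adjusted p = 0.0112), Cox6a1 (0.46 ± 0.14, adjusted p = 0.0237) and Ndufs1 (-0.44 ± 0.15, adjusted p = 0.0415). With a set term 0 of the 80 passed, beside 4.02% of all genes, and without SO JGT02 100 mouse 5 alone 22 were called, beside 29.9%.

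Within groups the 80 genes rose and fell together from library to library. After group means were removed and the libraries that stand apart left out, the median correlation of 2 genes was 0.55 over 42 GA libraries and 0.81 over 41 SO libraries, values that share libraries and normalization. Other genes had median correlations of 0.01 and -0.04 with the median of the 80. Complex IV was the least uniform in both muscles, with medians of 0.39 and 0.70 among its own genes. In GA, Cox6a2 ran against the rest, with a correlation of -0.35 with the median of the others, and Cox4i2 and Cox6a1 had 0.12 and 0.15. In SO the lowest were Cox6a1 at 0.35, Sdha at 0.41, Ndufs1 at 0.45, Cox8a at 0.48 and Cox6a2 at 0.50. Of the other genes called in SO DEX, Uqcrc2 had 0.69 and Sdhd 0.83.

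The libraries with the lowest medians had high shares of the complex IV isoforms of other tissues. In GA JGT02 100 mouse 1, Cox6a1 made up 40.9%, Cox7a2 66.4% and Cox8a 66.3% of their pairs, and in SO JGT02 100 mouse 5 the shares were 52.0%, 70.2% and 75.3%. Cox8b stood at 26.4 and 18.7 CPM in the 2 libraries, and Cox8a at 79.4 and 87.0. Sdha stood at 178 and 153 CPM. These 2 libraries also had the highest Myh3 levels of their muscles. Macrophage markers summed to 2360 and 2900 CPM in them, against 74.7 to 97.2 in GA NT and 35.3 to 82.3 in SO NT. Tendon and fibroblast markers summed to 4890 and 7210 CPM, against 950 to 1550 in GA NT and 530 to 782 in SO NT. The part of Myh3 and of these markers in the isoform shares was not tested.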

How the data were processed

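RNA-seq libraries of gastrocnemius and soleus, 43 per muscle, were analysed from a table of expected counts per gene, deposited by the authors. Per the submitters' processing notes, the tools were RSEM 1.3.3, STAR 2.7.3a, Trim Galore 0.6.5 and FastQC 0.11.9, and the build was GRCm38. Annotation, settings and strand use are not given in the sources used here, so genes that overlap on opposite strands (24 of the 80) or share words with other genes (22 of 79 share over 10% of their 31-base words) are uncertain. Of the non-zero expected counts deposited, 18.5% were not whole. They were rounded, filtered with filterByExpr and scaled by TMM, and 14484 genes remained for GA, 14811 for SO and 15327 for the muscles together. The quasi-likelihood test of edgeR 4.0.16 (R 4.3.3) was fitted once per muscle over 9 groups and once over 86 libraries for comparisons of the muscles, with Benjamini-Hochberg adjustment over all genes and a threshold of 0.05. Values are log2 fold changes ± SE.

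On simulated counts with 2-fold decreases, 64% of changed genes were recovered in GA DEX against non-treated (14424 genes) and 50% in SO (14700 genes), and 0.0281% and 0.0621% of unchanged genes were called. Smaller log2 changes of -0.5 and 0.5 were recovered in 36% and 42% of changed genes in GA and 28% and 26% in SO. The members and gene lists were chosen with earlier results of these data known. Genes named were, for DEX in each muscle, SO against GA and the difference between muscles, up to 3 genes per complex and direction with the largest called changes, or the largest uncalled one where a complex had none. In the other comparisons they were up to 3 per direction with the smallest p. The isoform panel and the 4 genes of complex II could be named anywhere. Other settings tried were the Wald test and size factors of DESeq2 1.42.0, unfiltered genes, models holding just the compared groups, a block for mouse number, leaving out each library, leaving out 3 libraries, and a set term. The combination of the last pair and the fit also without SO DEX mouse 4 were added after the data were seen. Transcript lengths and positions are from GENCODE vM21. Permutation tests used scipy 1.17.1, and figures matplotlib 3.10.9, under Python 3.11.15. The labels do not say whether equal mouse numbers in both muscles are 1 animal, so p values measure the spread between libraries.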

Additional observations from a re-analysis of the deposited data

Results flagged for a closer look

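The median of the 80 genes was far from the rest of its group in 2 libraries, each a single low library among 5. GA JGT02 100 mouse 1 had a log2 median of -1.57 relative to non-treated mice, and the other 4 libraries of its group had -0.17 to -0.09. SO JGT02 100 mouse 5 had -2.08, and its group's other libraries had -0.18 to 0.03. In all 30 groups of values were looked at in this way (18 of medians and 12 of isoform shares), and chance marks about 1 in 20. Relative to the non-treated mean of the muscle, no gene of the 80 moved one way in every SO DEX library and the other way in every GA DEX library (0 of 80).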

How the results depend on the processing

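Counts here are of the 80 genes called, GA first, in the order DEX, JGT and RSV against DEX, then the mean of the 8 dexamethasone groups. The share of all genes tested that was called follows each count in brackets. With no filter on low counts, GA DEX had 0 (3.42%) and the GA mean 13 (10.7%), and SO JGT02 100 had 1 (3.27%), SO JGT02 400 0 (6.67%) and SO RSV 1 (4.3%). With the 3 libraries left out GA DEX had 39 (26.4%), JGT02 400 1 (5.7%), JGT03 400 2 (6.49%) and JGT04 100 2 (9.36%). JGT04 400 had 2 (11.3%), RSV 1 (9.47%) and the mean 57 (42.7%). In SO that setting gave DEX 18 (43.2%), JGT02 100 12 (35.7%), JGT02 400 10 (30.3%), JGT03 100 9 (30%) and JGT03 400 14 (27.5%). JGT04 100 had 22 (31.2%), JGT04 400 21 (22.2%), RSV 46 (36.7%), the mean 24 (34.4%) and the difference between muscles 15 (33.6%). Fits of only the groups compared gave GA DEX 22 (19.7%), GA JGT04 100 1 (5.29%), SO DEX 10 (29.7%) and SO JGT02 100 0 (0%). SO JGT02 400 had 0 (3.53%), SO JGT04 100 6 (11.6%), SO RSV 17 (16.7%) and the difference 8 (23.9%). A set term gave the GA mean 6 (15.6%), SO RSV 0 (0.0203%), the SO mean 0 (4.02%), SO against GA 13 (22.7%) in non-treated and 33 (34.4%) in DEX mice. Another setting, without the 3 libraries and with a set term, was added after the data were seen. Counts were GA DEX 39 (26.7%), JGT02 400 1 (5.82%), JGT03 400 2 (6.65%), JGT04 100 2 (6.25%) and the mean 40 (36%). In SO they were DEX 18 (43.8%), JGT02 100 13 (36.6%), JGT02 400 5 (14.1%) and RSV 0 (0.0136%). The difference had 16 (34.1%) and SO against GA in non-treated mice 66 (38.5%). Without the 3 libraries and SO DEX mouse 4, also added, SO DEX had 20 (36.1%), JGT02 100 21 (28.4%), JGT02 400 6 (20%) and JGT03 100 8 (20.2%). JGT03 400 had 5 (15.4%), JGT04 100 11 (18.9%), JGT04 400 5 (10%), RSV 18 (23.7%), the mean 32 (37.8%) and the difference 22 (29.3%). DESeq2's Wald test gave SO JGT02 400 2 (18.2%), SO JGT04 400 1 (5.66%) and SO RSV 7 (14.1%). The cause was not tested.

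Leaving out 1 library gave 0 to 3 calls in GA DEX, 0 to 6 in GA JGT02 100, 0 in the other GA treatments and 10 to 57 in the GA mean. In SO it gave 2 to 5 in DEX, 0 to 10 in JGT02 100, 0 to 1 in JGT02 400 and JGT04 400, 0 in JGT03 and JGT04 100, 0 to 5 in RSV and 1 to 22 in the mean. SO against GA gave 52 to 59 in non-treated and 49 to 59 in DEX mice, and the difference 0. The share of all genes called moved as well. For the GA mean it was 42.7% in the fit with 57 calls, against 21.2% with all libraries. For the SO mean it was 29.9% in the fit with 22 calls, against 17.8%. For SO JGT02 100 it was 31.5% in the fit with 10 calls, against 8.82%. Log2 fold changes crossed 0 in GA DEX for Cox6a1 (-0.005 to 0.105) and Cox8a (-0.03 to 0.051), in SO DEX for Cox4i1 (-0.10 to 0.10), Cox6b1 (-0.12 to 0.11), Cox7a2l (-0.18 to 0.042), Atp5g1 (-0.009 to 0.21) and Atp5g3 (-0.24 to 0.013), and in the difference for Cox6b1 (-0.05 to 0.14), Cox7a2l (-0.11 to 0.084) and Sdhb (-0.12 to 0.092). Without the 3 libraries and SO DEX mouse 4 the sign turned in SO DEX for Cox4i1 (0.10), Cox6b1 (0.10), Cox7a2l (0.04) and Atp5g3 (0.01), and in the difference for Cox7a2l (0.10) and Sdhb (0.11). With a set term Cox7a2 in SO RSV was at -0.07. Members by the rule numbered 80 also with TMM-scaled totals.

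Mouse numbers did not pair libraries (median r 0.03 between GA and SO libraries of 1 number, 0.01 and 0.00 within GA and SO, each library's own number best in 9 of 40). With the number as a replicate block SO JGT02 100 had 1 call (7.15% of all genes), SO JGT02 400 2 (20.1%), GA DEX 3 (8.17%), SO DEX 6 (23.4%) and SO against GA 49 (43.2%).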
